A study of Mus musculus with 4 samples.

Results

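Antioxidant and glutathione genes were followed in primary mouse keratinocytes, the epithelial cells of the epidermis, on 4 Illumina bead arrays. The list held 39 genes, of which 34 had a probe under their symbol in the platform annotation; G6pdx, Pgd, Gsr, Prdx5 and Prdx6 were not analysed here. For a gene with several probes, the brightest on average stands for it. A probe counted as detected on an array where its detection p-value was under 0.01. Ftl1, a ferritin light chain gene, was not well above background on any array, which left 33 of the 16593 genes measured. All 33 were detected on 3 or 4 arrays.

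Every group held 1 array: 2.5 uM DAPT on day 7, no DAPT on day 7, 2.5 uM DAPT on day 4, and no DAPT on day 4. The treatment field of the labels reads DAPT for all samples, so groups follow the sample titles. Cells of all groups came from neonatal 129 mice carrying a Pou5f1::GFP reporter transgene and had received reprogramming transcription factors that the sources used here do not name; how many animals were pooled is not given. DAPT inhibits gamma-secretase, the protease that frees the intracellular domain of Notch receptors. Since no condition was repeated, pairwise differences come without an error or a p-value.

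Oxidants and electrophiles reach skin cells from ultraviolet light, air and their own mitochondria. The transcription factor NRF2, encoded by Nfe2l2, drives many genes that detoxify them; KEAP1 binds NRF2 and directs it to degradation, and loses that hold when its reactive cysteines are modified. Glutathione and thioredoxin are the main thiol reductants of the cell, both kept reduced with NADPH, and NRF2 is known for a protective role in the epidermis. NRF2 is controlled largely at the protein level, which arrays do not measure.

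The 9 keratinocyte marker genes with a probe, such as Krt5 and Trp63, were detected on all 4 arrays. Their summed linear intensity was 19518 with DAPT and 16676 without DAPT on day 7, and 34252 with DAPT and 31907 without DAPT on day 4. All 8 fibroblast markers were also detected throughout, with sums of 30176 and 29334 on day 7 and 16864 and 17202 on day 4, in each pair with DAPT and then without. Of 5 immune markers 2 were detected on each array, with Ptprc, Cd207 and Cd74 below detection. Of 6 melanocyte markers 3 or 4 were detected, with a summed intensity of 266 with DAPT and 880 without DAPT on day 7. Mean deposited intensity was 416 with DAPT and 323 without DAPT on day 7, and 365 with DAPT and 472 without DAPT on day 4. The untreated day 4 array was thus the brightest, and it enters both the day 4 comparison with DAPT and the comparison of days without DAPT.

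With DAPT, few of these genes differed by a factor of 2, and those that did were mostly lower on day 4. On day 7, 0 of 33 differed at least 2-fold, where 2.21% of the 9705 genes compared did (1.71% higher and 0.495% lower). At a lower limit of 1.5-fold, 7 did, beside 13.2% of all genes: Gpx1 and Gstm5 were higher, and Hmox1, Slc7a11, Gsta4, Gstk1 and Mgst2 lower. On day 4, 3 were at least 2-fold lower (Nqo1, Hmox1 and Prdx2) and 1 was higher (Txnrd1), a share of members to set beside the 7.41% of 9913 genes that differed so in either direction (3.81% higher and 3.6% lower). At 1.5-fold it was 7 members, beside 27.7% of all genes. With arrays scaled by their medians the 2-fold count on day 4 was 2 lower (Nqo1 and Hmox1) and 0 higher. The members' median log2 difference was -0.12 on day 7 and 0.04 on day 4, beside -0.05 and 0.08 over all genes compared. With that scaling in place of quantiles the members' medians were 0.13 on day 7 and -0.13 on day 4, beside 0.17 and -0.10 over all genes, so neither sign is settled. Of the 33 members, 17 had DAPT differences of opposite sign on the 2 days, 7 were higher with DAPT on both and 9 were lower on both. The same split was not counted over all genes, so it is not read as a trait of the members.

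**Figure D1:**
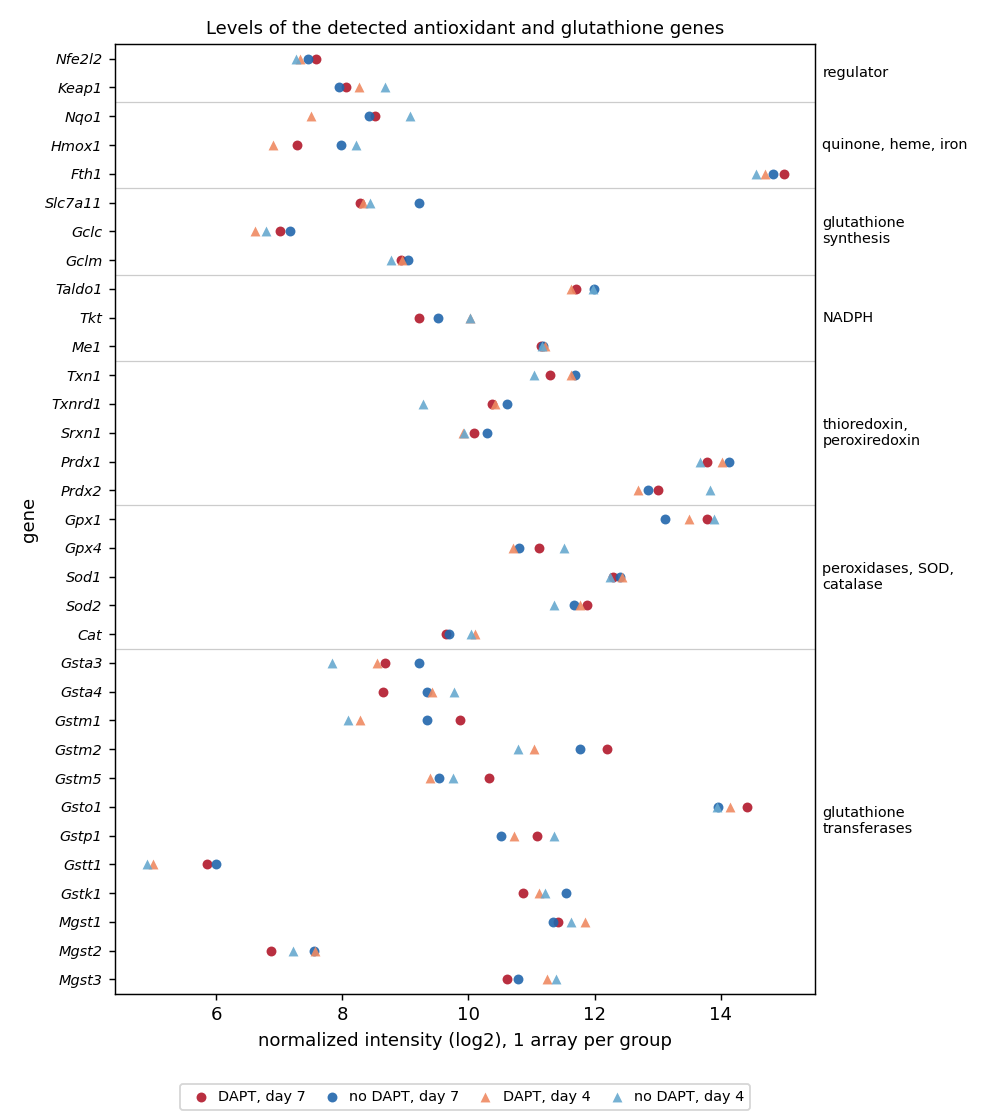
Normalized log2 intensity (x axis) of the 33 detected genes (y axis, grouped by role) on each of the 4 arrays, 1 point per array. For Gstm1, Gstm2 and Gstt1 both day 7 points lie to the right of both day 4 points. The same holds for Nfe2l2, Fth1, Gclc, Srxn1 and Gsta3, and the reverse for Keap1, Tkt, Cat, Gsta4, Mgst1 and Mgst3. For Txnrd1 and Gsta3 the untreated day 4 array lies to the left of the other arrays.

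**Figure D2:**
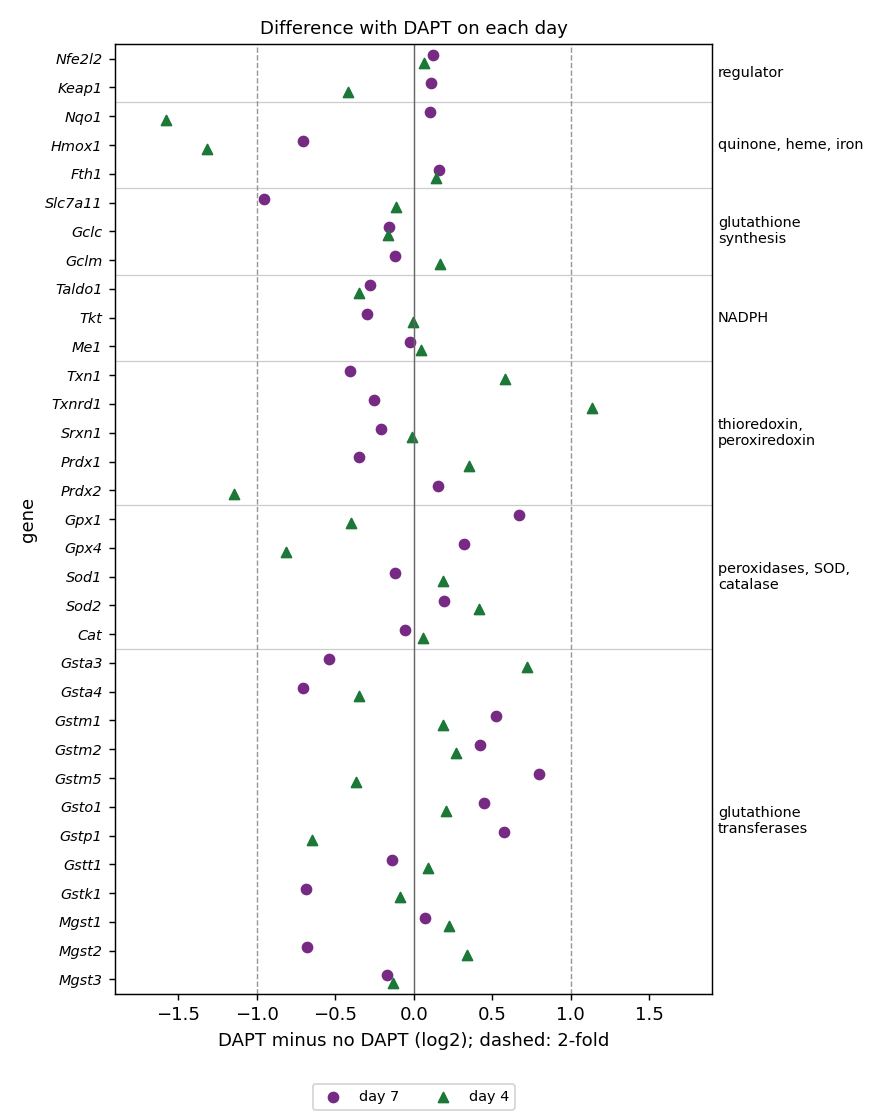
Log2 difference of DAPT minus no DAPT (x axis) for each of the 33 genes (y axis) on day 7 (circles) and day 4 (triangles), 1 array against 1; dashed lines mark 2-fold. On day 7 no circle reaches a dashed line, and on day 4 Nqo1, Hmox1 and Prdx2 lie beyond the lower line and Txnrd1 beyond the upper one.

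The 4 arrays together allow 1 test, an additive fit of day and DAPT with limma to 10359 genes. Its 1 residual degree of freedom measures how far a gene's DAPT effect on day 7 departs from that on day 4, and limma gave every gene the same SD of 0.38. For DAPT, 0 of the 33 members passed a Benjamini-Hochberg adjusted p of 0.05 in limma, beside 0.116% of all genes, and 1 member, Hmox1, passed an unadjusted p of 0.05, as did 1.96% of all genes. In simulated data, 1 run for each effect, the adjusted test recovered 2.5% of added 2-fold changes for DAPT and 22% for day. Both effects have the same SE in this design, so the gap does not make the test of day the more sensitive. Most added 2-fold changes were missed for either effect. A member that did not pass may therefore still differ 2-fold. For day 7 against day 4, 1 of 33 rose, Gstm1, and 0 fell, beside 1.83% of all genes that passed (1.16% rose and 0.676% fell). At an unadjusted p of 0.05 the day effect passed in 4 of the 33 members (Gsta3, Gstm1, Gstm2 and Gstt1). That share is near the 9.41% of all genes that passed so. The p-values thus set an effect against that departure, pooled over genes, and not against a scatter between replicates. Whether the 4 cultures were independent is not stated, and the departure may be technical in part.

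The antioxidant response element is the DNA motif that NRF2 binds with a small MAF partner. Its core, TGACNNNGC, was searched on both strands of the 250 bases before each RefSeq start (GRCm38.p6). Sequence outside these windows was not searched, so a gene without a match may have one elsewhere. Of 39 such windows of 30 detected members, 8 held a match (20.5%), beside 10.2% of all 32851 windows. The 8 genes were Nfe2l2, Gclm, Prdx1, Txnrd1, Sod1, Gsta3, Gstm5 and Mgst1. Of the 8 members that differed 2-fold in any comparison, Hmox1 had no window, Gsta3 and Txnrd1 had a match, and Nqo1, Prdx2, Gstm1, Gstm2 and Gstt1 had none within the 250 bases. Windows of 5 of them, chosen after their values were seen, show what was searched: Gsta3 and Txnrd1 with the match in capitals, and Gstm1, Gstm2 and Nqo1 without one. The sequences read 5′ to 3′ in the direction of the gene, and a match is only a run of letters, not a measured binding site.
Gsta3, chr1:21240335-21240584, plus strand, match beginning 121 bases before the start: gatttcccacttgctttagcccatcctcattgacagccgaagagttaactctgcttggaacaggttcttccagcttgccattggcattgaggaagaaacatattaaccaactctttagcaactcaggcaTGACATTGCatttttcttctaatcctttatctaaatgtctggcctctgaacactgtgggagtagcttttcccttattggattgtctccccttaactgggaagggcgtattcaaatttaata
Txnrd1, chr10:82858956-82859205, plus strand, 1 of its 3 windows, match on the opposite strand: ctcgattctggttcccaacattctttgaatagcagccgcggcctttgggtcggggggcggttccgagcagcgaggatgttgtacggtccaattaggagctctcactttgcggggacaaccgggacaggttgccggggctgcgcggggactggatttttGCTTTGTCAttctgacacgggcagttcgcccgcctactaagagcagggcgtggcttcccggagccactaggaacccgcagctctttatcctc
Gstm1, chr3:108017819-108018068, minus strand, 1 of its 2 windows: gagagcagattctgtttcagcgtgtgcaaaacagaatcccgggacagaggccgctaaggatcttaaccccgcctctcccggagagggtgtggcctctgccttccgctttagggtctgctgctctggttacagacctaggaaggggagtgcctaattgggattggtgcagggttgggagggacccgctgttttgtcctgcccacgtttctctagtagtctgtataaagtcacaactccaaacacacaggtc
Gstm2, chr3:107986421-107986670, minus strand: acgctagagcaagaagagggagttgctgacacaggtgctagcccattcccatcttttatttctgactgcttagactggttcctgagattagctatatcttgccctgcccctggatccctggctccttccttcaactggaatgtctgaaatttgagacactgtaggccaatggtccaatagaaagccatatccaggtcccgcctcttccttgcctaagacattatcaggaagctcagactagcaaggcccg
Nqo1, chr8:107403206-107403455, minus strand: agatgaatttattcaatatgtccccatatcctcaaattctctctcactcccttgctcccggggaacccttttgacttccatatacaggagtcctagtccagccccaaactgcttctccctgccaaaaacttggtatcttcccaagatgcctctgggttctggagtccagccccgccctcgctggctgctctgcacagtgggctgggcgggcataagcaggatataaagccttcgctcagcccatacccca

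The regulator itself differed little. Nfe2l2 had log2 intensities of 7.58 with DAPT and 7.46 without DAPT on day 7, and of 7.34 with DAPT and 7.27 without DAPT on day 4. Its 4 values spanned 0.31 on the log2 scale, with differences of 0.13 with DAPT on day 7 and 0.07 on day 4. Its second probe was not detected on any array. Keap1 had 8.05 with DAPT and 7.94 without DAPT on day 7, and 8.26 with DAPT and 8.68 without DAPT on day 4, and was highest on the untreated day 4 array. Its 4 probes, all detected on every array, disagreed: on day 4 the differences with DAPT ran from -1.84 to 0.58, and on day 7 from 0.11 to 1.04. No direction for Keap1 on day 4 follows from them.

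Of the 3 detected genes of quinone, heme and iron metabolism, on day 4 Nqo1 and Hmox1 passed the 2-fold limit, both lower with DAPT, and Fth1 did not; 0 of the 3 passed the adjusted DAPT test. Nqo1, an NADPH-dependent quinone reductase, had 8.52 with DAPT and 8.42 without DAPT on day 7, and 7.50 with DAPT and 9.08 without DAPT on day 4. The DAPT culture of day 4 was thus the lowest of the 4 and the untreated one of that day the highest, a difference of -1.58 (2.99-fold lower), while on day 7 the arrays differed by 0.10. Its second probe gave -0.87 on day 4 and -0.57 on day 7, so the probes had opposite signs on day 7. With DAPT, Nqo1 was also higher on day 7 than on day 4 by 1.02, which was 0.91 with the authors' values, under 2-fold, and 0.49 on the second probe. Hmox1, the inducible heme oxygenase, had 7.28 with DAPT and 7.99 without DAPT on day 7, and 6.91 with DAPT and 8.22 without DAPT on day 4. Both its DAPT arrays lay below both untreated arrays, as for Slc7a11, Taldo1 and Gstk1, with the reverse for Sod2 and Gsto1. How many genes of the series separate by DAPT in this way was not counted, so no effect of DAPT is read from this order. Hmox1 was lower with DAPT on both days, by -0.70 on day 7 and -1.31 on day 4. In the additive limma test its DAPT difference was -1.01 (SE 0.38), with an unadjusted p of 0.00864 and an adjusted p of 1.0. Fth1, the ferritin heavy chain that stores iron, differed by 0.16 on day 7 and 0.14 on day 4.

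Genes of glutathione supply were nearer to one another, apart from the cystine transporter. Slc7a11, the cystine importer subunit that feeds cysteine into glutathione, had 8.27 with DAPT and 9.22 without DAPT on day 7, and 8.32 with DAPT and 8.44 without DAPT on day 4. Its untreated day 7 array stood above the other arrays, and its difference with DAPT on day 7, -0.95 or 1.93-fold lower, was the lowest of all 33 members, just short of the 2-fold limit. The melanocyte marker sum was likewise lowest with DAPT on day 7 and highest without DAPT on day 7, and its part in this difference was not tested. Gclc, the catalytic subunit of the enzyme for the first step of glutathione synthesis, differed by -0.16 on each day, and its modifier subunit Gclm by -0.12 on day 7 and 0.17 on day 4. Among genes of NADPH supply and the linked sugar phosphate pathway, Taldo1 differed by -0.28 on day 7 and -0.35 on day 4. Tkt, like Taldo1 an enzyme of the pentose phosphate pathway, differed by -0.30 and -0.00, and Me1, malic enzyme, by -0.02 and 0.04. The second probe of Me1 gave 0.85 on day 4.

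Within the thioredoxin system the members parted. Txnrd1, the cytosolic thioredoxin reductase, had 10.37 with DAPT and 10.62 without DAPT on day 7, and 10.42 with DAPT and 9.29 without DAPT on day 4. The untreated day 4 array stood below the other 3, which lay within 0.25 of each other, and this array gives both the DAPT difference of 1.13 on day 4 and the day difference of 1.33 without DAPT. Its DAPT difference on day 7 was -0.25. Prdx2, a peroxiredoxin, had the opposite order on day 4, with 13.01 with DAPT and 12.85 without DAPT on day 7, and 12.69 with DAPT and 13.83 without DAPT on day 4. Here the untreated day 4 array was the highest and the day 4 difference -1.14, but the second probe detected on all arrays gave -0.05. Txn1, thioredoxin itself, differed by -0.41 on day 7 and 0.58 on day 4, and Prdx1 by -0.35 and 0.35. Srxn1, the sulfiredoxin that repairs overoxidized peroxiredoxins, differed by -0.21 and -0.01.

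Of the peroxidases and dismutases, 0 of 5 differed 2-fold in either DAPT comparison. Gpx4, the peroxidase of membrane lipid peroxides, had 11.12 with DAPT and 10.80 without DAPT on day 7, and 10.71 with DAPT and 11.52 without DAPT on day 4, a difference of 0.32 on day 7 and of -0.81 on day 4. Gpx1 differed by 0.67 on day 7 and -0.40 on day 4. Cytosolic Sod1 differed by -0.12 and 0.19, mitochondrial Sod2 by 0.20 and 0.42, and catalase, Cat, by -0.06 and 0.06.

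The glutathione transferase genes, which couple glutathione to electrophiles, make up 12 of the 33 detected members. With DAPT, 3 of the 33 members were at least 2-fold higher on day 7 than on day 4 (Nqo1, Gstm1 and Gstm2) and 0 were lower, where 3.07% of the 9860 genes compared were higher and 2.05% lower (5.12% in all). At 1.5-fold it was 9 members, beside 19.7%. Without DAPT, 4 were higher (Txnrd1, Gsta3, Gstm1 and Gstt1) and 0 lower, where 7.49% of 9879 genes were higher and 6.58% lower (14.1% in all). At 1.5-fold it was 14 members, beside 37.9%. With median scaling the 2-fold split without DAPT was 1 higher (Txnrd1) and 2 lower (Keap1 and Nqo1), with no transferase among them. The members' medians were 0.11 with DAPT and 0.16 without DAPT, beside -0.03 and 0.09 over all genes. That scaling also gave a members' median without DAPT of -0.07, beside -0.14 over all genes.

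Gstm1, a mu-class transferase, had 9.86 with DAPT and 9.34 without DAPT on day 7, and 8.28 with DAPT and 8.10 without DAPT on day 4. Both day 7 arrays stood above both day 4 arrays, by 1.58 with DAPT and 1.24 without DAPT. Nfe2l2, Fth1, Gclc, Srxn1, Gsta3, Gstm2 and Gstt1 had the same order by day, and Keap1, Tkt, Cat, Gsta4, Mgst1 and Mgst3 the reverse. How many genes of the series separate by day in this way was not counted. In the additive limma test Gstm1 rose by 1.41 (SE 0.38, adjusted p = 0.0174), higher on day 7 in 2 of 2 comparisons. Over the alternatives that adjusted p ran between 0.0174 and 0.670: it was 0.0738 with the authors' normalized values, 0.619 without a detection filter, 0.658 with median scaling and 0.670 with the mean over probes, the other Gstm1 probe being detected on 1 array only. The lower keratinocyte and higher fibroblast marker sums of both day 7 arrays, given above, went with this difference, and their part in it was not tested. In bulk samples more cells of a type and more RNA per cell cannot be told apart.

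Gstm2, its neighbour in the same family, had 12.20 with DAPT and 11.78 without DAPT on day 7, and 11.05 with DAPT and 10.78 without DAPT on day 4. Its groups by day did not overlap either, with day differences of 1.15 with DAPT and 0.997 without DAPT, on either side of the 2-fold limit. In the additive limma test its day difference was 1.07 (SE 0.38), with an adjusted p of 0.15. All 3 probes of Gstm2 were detected on every array. Gstm5 did not share the pattern: it had 10.33 with DAPT and 9.54 without DAPT on day 7, and 9.39 with DAPT and 9.76 without DAPT on day 4. Mu-class genes are close in sequence, and the probe sequences were not used here to see whether they separate them.

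Gsta3, an alpha-class transferase, had 8.68 with DAPT and 9.22 without DAPT on day 7, and 8.55 with DAPT and 7.83 without DAPT on day 4. Like Txnrd1 it was lowest on the untreated day 4 array, with a day difference of 1.38 without DAPT and 0.13 with DAPT. Its DAPT difference was -0.54 on day 7 and 0.72 on day 4. Gstt1, a theta-class transferase, had 5.86 with DAPT and 5.99 without DAPT on day 7, and 4.995 with DAPT and 4.90 without DAPT on day 4. Both day 7 arrays stood above both day 4 arrays. The day 4 DAPT array did not detect it, so the day difference with DAPT is given as at least 1.81-fold, and without DAPT it was 1.09. Gstt1 was dim, with deposited intensities without DAPT of 31 on day 7 and 18 on day 4. With an offset of 50 the difference without DAPT was 0.61, under 2-fold. Gsta4, an alpha-class enzyme for lipid aldehydes, was lower on day 7, by -0.78 with DAPT and -0.43 without DAPT. Membrane-bound Mgst3 differed by -0.64 with DAPT and -0.61 without DAPT. Of these 4 genes 0 passed the adjusted threshold for day in limma, and Gsta3 and Gstt1 had adjusted p values of 0.53 and 0.24.

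With DAPT against no DAPT, 0 of the 12 transferases differed 2-fold on either day. With DAPT on day 7, Gsta4 stood at -0.70, Gstk1 at -0.69 and Mgst2 at -0.68, and Gsto1 at 0.45 and Gstm5 at 0.80 on the other side. On day 4 the same genes stood at -0.35, -0.09, 0.34, 0.20 and -0.37, so Mgst2 and Gstm5 had opposite signs on the 2 days. Mgst1 and Mgst3, membrane-bound transferases, differed by 0.07 and -0.17 on day 7 and by 0.23 and -0.13 on day 4.

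**Figure D3:**
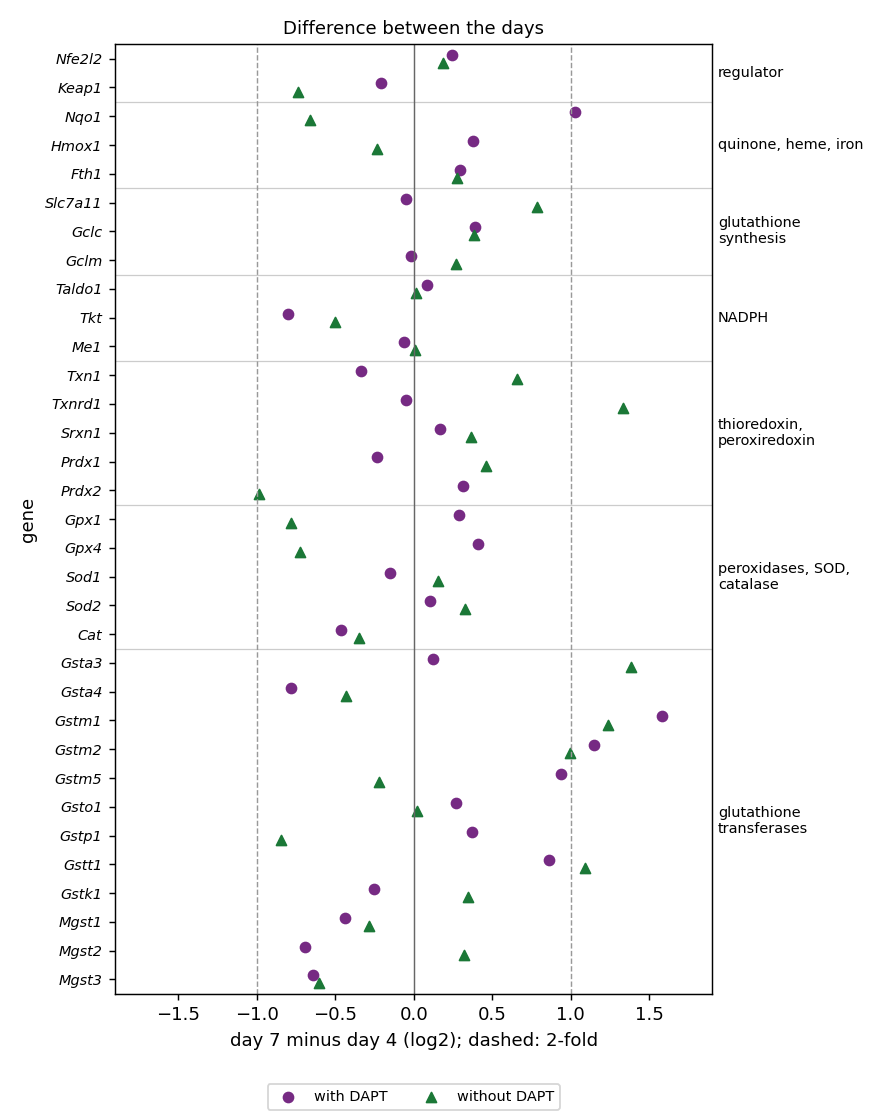
Log2 difference of day 7 minus day 4 (x axis) for each of the 33 genes (y axis) with DAPT (circles) and without DAPT (triangles), 1 array against 1; dashed lines mark 2-fold. Gstm1 lies beyond the upper line under both conditions, and no gene lies beyond the lower line.

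Several members had more than 1 informative probe, which shows how far probes of a gene disagree on the same arrays. It does not measure the error between cultures or between arrays. Over all genes with several probes detected on both arrays, the SD between probes of a gene was 0.34 for the DAPT difference on day 7 and 0.50 on day 4. For the day difference it was 0.27 with DAPT and 0.59 without DAPT. Of 11 members with several probes detected on all arrays, 5 had probes of opposite sign for DAPT on day 7 (Nqo1, Prdx2, Gstp1, Mgst1 and Mgst3). On day 4 there were 3 such members (Keap1, Gstp1 and Mgst3). For the day difference there were 2 with DAPT (Keap1 and Gstp1) and 6 without DAPT (Keap1, Nqo1, Srxn1, Prdx2, Gstp1 and Mgst1). Gstp1, the pi-class transferase, had probes from -0.81 to 0.57 on day 7 and from -0.64 to 0.66 on day 4, and its brightest probe was highest on the untreated day 4 array. Each of the day 4 differences of Hmox1 and Txnrd1 rests on 1 probe.

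**Figure D4:**
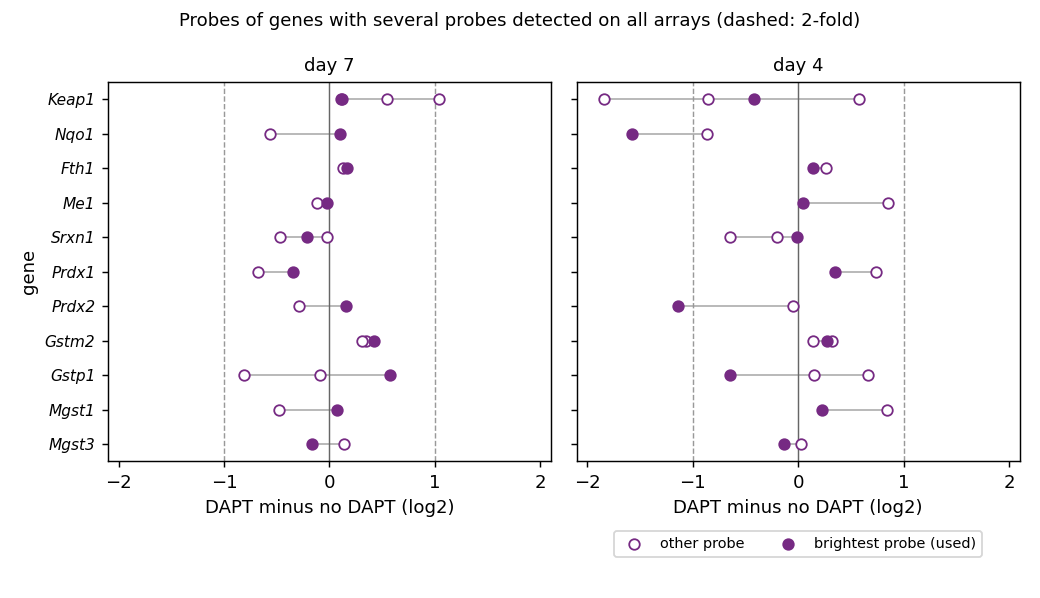
Log2 difference of DAPT minus no DAPT (x axes) on day 7 and day 4 for each probe of the 11 genes with several probes detected on all 4 arrays (y axis); filled points are the brightest probes, used in the text, and open points the other probes. Keap1 spans from -1.84 to 0.58 on day 4, whereas the 3 probes of Gstm2 lie close together.

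The untreated day 4 array was an extreme for many genes of the series. Among the 32 members detected on all arrays it was the highest array for 10 and the lowest for 12 (31.2% and 37.5%), beside 28.0% and 41.8% of the 8256 genes detected on all arrays. With DAPT on day 7 the array was the highest for 7 members and the lowest for 8 (21.9% and 25.0%), beside 16% and 20.9% of all genes. All 4 members at 2-fold with DAPT on day 4 had the untreated day 4 array at an end of their range. It was the highest for Nqo1, Hmox1 and Prdx2, whose lowest array was DAPT on day 4, and the lowest for Txnrd1. These members were chosen by a difference that uses this array, so its place at an end follows largely from that choice. The part of array brightness in them was not tested.

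Other genes of oxidant defence were read in the same way. Of a further list of 59 genes, 55 had a probe and 53 were detected on at least 1 array. With DAPT on day 7, 0 of the 53 differed 2-fold, beside 2.21% of all genes, and their median was 0.03, beside -0.05. On day 4, 3 were higher and 3 lower, beside 3.81% and 3.6% of all genes, with a median of -0.06, beside 0.08. The higher ones were Aldh3a1, an aldehyde dehydrogenase, at 1.35, Idh2, which makes mitochondrial NADPH, at 1.21, and Gsta2 at 1.06. The lower ones were Gss, glutathione synthetase, at -1.38, Txnip, an inhibitor of thioredoxin, at -1.09, and Gpx7 at -1.04. Aldh3a1 had 9.06 with DAPT and 8.45 without DAPT on day 7, and 8.97 with DAPT and 7.62 without DAPT on day 4, higher with DAPT on both days. Its DAPT difference in the additive limma test was 0.98 (SE 0.38, adjusted p = 1.0).

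Between the days, 6 of the 53 were at least 2-fold higher on day 7 with DAPT and 1 was lower, beside 3.07% and 2.05% of all genes. Without DAPT 5 were higher and 2 lower, beside 7.49% and 6.58%. Gpx3, the secreted plasma glutathione peroxidase, had 10.32 with DAPT and 10.32 without DAPT on day 7, and 8.08 with DAPT and 8.72 without DAPT on day 4. It rose by 1.92 (SE 0.38, adjusted p = 0.00014) in the additive limma test, the only gene of the 53 to pass for day, and it was higher by 2.24 with DAPT and 1.60 without DAPT. With median scaling, or without a detection filter, 0 genes of the series passed for day, Gpx3 and Gstm1 included. The marker sums of keratinocytes and fibroblasts differed by day here too, and their part was not tested. Sod3, the extracellular superoxide dismutase, was higher by 1.10 with DAPT and 1.09 without DAPT. The other 4 higher with DAPT were Gstm6 at 1.67, Blvrb at 1.34, Gpx7 at 1.31 and Gstp2 at 1.04, the last against an array that did not detect it. Nfe2l3, a relative of Nfe2l2, was lower by -1.08 with DAPT. Without DAPT, the others were Mt2, a metallothionein, at 1.46, Abcc3 at 1.38 and Gsta1 at 1.35, and, lower, Cbr1, a carbonyl reductase, at -1.23 and Gpx2 at -1.16. Gstm6 lay on the same side as Gstm1 and Gstm2, with 7.71 with DAPT and 7.04 without DAPT on day 7, and 6.04 with DAPT and 6.52 without DAPT on day 4.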

How the data were processed

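One table that the authors deposited gives non-normalized linear intensity for 25697 probes. Each array also has a deposited column of detection p-values, per the file headers. The submitters' processing notes name BeadStudio, with no version. Between 5177 and 5847 intensities an array lie below 0, which shows that background was taken off earlier. The authors also deposited normalized intensity, by an unstated method, and it served as an alternative. The arrays detected between 12281 and 14145 probes, and 1 array per group limits precision.

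The non-normalized table went through neqc (limma 3.58.1, R 4.3.3), which corrected background, added an offset of 16, normalized by quantiles and took log2. The platform annotation named 23978 probes with 1 gene symbol and left 1719 unnamed. A gene entered a comparison if detected on at least 1 of its 2 arrays and was called at 2-fold; where the dimmer array did not detect it, the fold is a lower bound against the higher of that array's lowest detected signal and the probe's own. The additive limma test used day and DAPT, with Benjamini-Hochberg adjustment over all 10359 genes. It was also run on simulated data in which 200 of the 10359 genes were changed. Changes of 1 on the log2 scale were recovered in 2.5% for DAPT and 22% for day, and changes of 2 in 99% for each. Each setting was run 1 time, and the SE is the same for both effects, so the first 2 shares do not rank the tests. Members that differed 2-fold in a comparison or passed a test were described with all 4 values, as were Nfe2l2 and Keap1. The members, lists and rules were chosen with earlier results of these data known. Alternatives were median scaling, no background correction, an offset of 50, the authors' values, stricter and no detection filters, other probe choices and a 1.5-fold limit. Promoter windows are from RefSeq, GRCm38.p6; 30 of the 33 members had one. Python 3.11.15 with pandas 2.3.3, numpy 2.4.6 and matplotlib 3.10.9 made counts and figures.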

Additional observations from a re-analysis of the deposited data

Results flagged for a closer look

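In 6 cases a probe differed with DAPT by at least 1.5-fold in opposite directions on the 2 days. The difference between days was not tested, and how many probes of the series did the same was not counted. The cases among the members were all dimmer probes, and no brightest probe of a member met this limit. A dimmer probe of Keap1 stood at 1.04 on day 7 and -1.84 on day 4. A dimmer probe of Gstp1 stood at -0.81 on day 7 and 0.66 on day 4, opposite to its brightest probe at 0.57 and -0.64. A dimmer probe of Prdx1, in the same direction as its brightest probe on each day, stood at -0.68 on day 7 and 0.74 on day 4. Gpx7, a peroxidase of the endoplasmic reticulum, stood at 0.71 on day 7 and -1.04 on day 4. Gpx2, an epithelial glutathione peroxidase, stood at 0.83 on day 7 and -0.67 on day 4. Idh1, which makes NADPH in the cytosol, stood at 0.85 on day 7 and -0.72 on day 4. All values are log2 differences of DAPT minus no DAPT between 2 arrays.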

How the results depend on the processing

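Of 88 recomputed values of the 11 differences of single members at 2-fold, 37 equalled the reported value, since the detection filters and the choice by linear intensity changed no probe and some genes have 1 probe. The other 51 kept the sign, and 47 of them moved by less than the SD between probes, a wide limit of up to 0.59. Some of these 47 fell under 2-fold. Among them, for day without DAPT, were Gstt1 at 0.61 with an offset of 50, and Gstm1 at 0.87 and Gsta3 at 0.99 with median scaling. The 4 that moved further came from the mean over probes. The count of members at 2-fold was 7 at a 1.5-fold limit for DAPT on day 7, 7 on day 4, 9 for day with DAPT and 14 for day without DAPT. Median scaling gave 1 for DAPT on day 7 (Gstm5) and 2 on day 4 (Nqo1 and Hmox1), and the mean over probes gave 1 for day with DAPT (Gstm2) and 2 without DAPT (Txnrd1 and Gstt1). The cause was not tested. Median scaling shifted the median of all genes by 0.22 for DAPT on day 7, by -0.18 on day 4, by 0.13 for day with DAPT and by -0.23 without DAPT. The members' medians with it were 0.13 and -0.13 for DAPT on day 7 and day 4, and -0.074 for day without DAPT. In the additive limma test of day, members past the threshold numbered 0 with median scaling, with the authors' values, without a detection filter and with the average of a gene's probes. All genes past it numbered 190 for day as reported, 0 with median scaling and with no filter, 40 with the mean over probes and 82 with an offset of 50. For DAPT they numbered 12 as reported, 4 with the authors' values, 1 with an offset of 50, and 0 with median scaling, no filter and the mean over probes, while the members numbered 0 in every setting. Leaving out any array leaves the additive model no residual, so it was not refitted. The additive model already compares DAPT within each day. The labels give no replicate numbers.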
